A study of Mus musculus with 12 samples.

Results

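Cytosines of intermediate methylation were followed in the experimental and control iMEF lines. A cytosine was taken when it lay on an autosome, was listed in all 12 RRBS libraries and was from 30 to 70% methylated in both day 0 libraries, that is, before doxycycline. Of 606488 autosomal cytosines listed in every library, 29592 (4.88%) met this rule. The experimental line was R26M2rtTA/+;TetOcre;Sdhc fl/fl and the control line was R26M2rtTA/+;TetOcre;Sdhc fl/wt, both immortalised mouse embryonic fibroblasts. Both carried the doxycycline-dependent activator and the inducible Cre, and both carried a floxed allele of Sdhc, a subunit of succinate dehydrogenase. Doxycycline at 1 µg/mL was given from day 0 and cells were taken at day 0 and on days 5, 9, 12, 16 and 20 after it, with 1 library for each line and day. Each genotype was a single line, so line and genotype cannot be told apart, and the 5 later days of a line were time points of 1 culture series and not separate cultures. P-values therefore measure the spread between these libraries only.

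In mammalian DNA, methyl groups are placed mainly on cytosines that are followed by guanine (CpG). Most CpGs are close to fully methylated, whereas CpG-dense gene starts are usually unmethylated, and maintenance methylation copies the pattern from the old strand to the new one at each division. An intermediate percentage can be read where one parental copy is methylated and the other is not, as at imprinting control regions, where cells of a line differ from each other, or where few reads cover the cytosine. RRBS reads fragments cut at CCGG sites after bisulfite treatment, and it cannot separate these cases when only a percentage is kept. Loss of succinate dehydrogenase raises succinate, which inhibits the TET enzymes that oxidise methylcytosine.

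The deposited values were percentages with no number of reads beside them, and the depth at each cytosine is unknown. The libraries listed from 932307 to 1716381 cytosines. The control day 12 library listed the fewest and stood apart in the results below, and the main values are given with and without it. Sdhc itself held 11 listed cytosines and none met the rule, and these values do not check the deletion. The experimental libraries listed 1229 to 1622 cytosines of chromosome Y and the control libraries 166 to 204, and the part of this difference between the lines in the autosomal results was not tested.

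Promoters of 3 genes with many of the chosen cytosines are shown first, each as the 250 bases before the gene start (RefSeq sequence, GRCm38.p6, the assembly of mm10, written 5′ to 3′ on the strand of the gene). They are shown because several chosen cytosines lie close together in each, with other listed ones between them, and can be followed on the sequence. Capitals mark CG dinucleotides in which a chosen cytosine lies. The first is upstream of Mcts2, an imprinted retrogene inside H13 (chr2:152686898-152687147, plus strand), the second is upstream of Nmu, which encodes the peptide neuromedin U (chr5:76363778-76364027, minus strand), and the last is upstream of Otud7a, which encodes a deubiquitinase (chr7:63444522-63444771, plus strand).
Mcts2: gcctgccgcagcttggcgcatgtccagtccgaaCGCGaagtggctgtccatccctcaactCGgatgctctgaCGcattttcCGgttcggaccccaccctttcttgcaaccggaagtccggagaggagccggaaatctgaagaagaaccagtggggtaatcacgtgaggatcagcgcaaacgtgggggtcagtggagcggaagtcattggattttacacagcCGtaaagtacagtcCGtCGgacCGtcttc
Nmu: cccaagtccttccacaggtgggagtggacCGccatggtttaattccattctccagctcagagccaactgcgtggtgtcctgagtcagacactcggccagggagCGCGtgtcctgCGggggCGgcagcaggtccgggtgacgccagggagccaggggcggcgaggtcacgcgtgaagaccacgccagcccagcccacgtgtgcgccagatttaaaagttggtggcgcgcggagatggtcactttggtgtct
Otud7a: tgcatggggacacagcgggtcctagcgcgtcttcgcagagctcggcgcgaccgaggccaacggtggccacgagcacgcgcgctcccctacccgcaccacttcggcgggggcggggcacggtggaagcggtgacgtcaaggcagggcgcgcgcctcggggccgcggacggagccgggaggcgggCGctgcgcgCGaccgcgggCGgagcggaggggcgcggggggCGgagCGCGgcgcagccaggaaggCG

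The Mcts2 stretch held 13 listed cytosines, 9 of them chosen, in a set of 5 between 216 and 168 bp before the start and a set of 4 between 28 and 6 bp before it. The far set averaged 40.7% in the experimental and 66.7% in the control library of day 0. On days 5, 9, 12, 16 and 20 it was at 67.0, 49.0, 31.7, 50.6 and 54.6% in the experimental line and at 56.5, 79.5, 100, 62.8 and 85.8% in the control line. The near set was at 54.5, 79.2, 60.5, 75.7 and 93.5% in the experimental line and at 48.3, 86.2, 46.3, 60.6 and 49.4% in the control line. The far set was thus lower in the experimental line at 4 of 5 days and the near set was higher at 4 of 5 days, and within each set the line ranges overlapped. The 3 listed cytosines between them, 122 to 77 bp before the start, were not chosen. Their mean was 98.5% in the experimental day 0 library and 37.5% in that of the control line, and it was 94.5 ± 5.10% and 69.6 ± 9.96% (mean ± SD, n = 5) over days 5 to 20. None of the 9 chosen cytosines passed the test between the lines (lowest adjusted p = 0.428, limma), and 1 of the 3 between them did (98.2 against 68.1%, adjusted p = 0.0283).

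Upstream of Nmu, 5 of 7 listed cytosines were chosen. The 4 nearest the start, from 129 to 146 bp before it, had means of 26.6 to 38.5% in the experimental and 11.1 to 22.5% in the control line over days 5 to 20. The cytosine 221 bp before the start was at 81.8 ± 13.7% and 90.9 ± 19.4% (SD, n = 5). Upstream of Otud7a, 7 of 19 listed cytosines were chosen, and their means ran from 18.4 to 64.8% in the experimental and from 5.71 to 74.4% in the control line. Chosen and other cytosines alternated there within a few bases. None of these cytosines passed the test.

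The chosen cytosines averaged 51.4% in the experimental and 50.6% in the control library of day 0, which the rule used, and every later library of a line was higher. Because the rule limited the day 0 values, this rise is no measure of change under doxycycline. The mean of the chosen cytosines on days 5, 9, 12, 16 and 20 was 54.1, 55.5, 54.7, 52.8 and 54.3% in the experimental line and 52.0, 52.1, 52.4, 51.8 and 51.1% in the control line. The mean of these days was 54.3 ± 0.961% in the experimental and 51.9 ± 0.498% in the control line (SD over libraries, n = 5), and the ranges of the lines did not overlap. Over all autosomal cytosines the line means were 44.1 ± 0.465% and 43.0 ± 0.223%, with the experimental line again higher in all 5 libraries. The day 0 values over all cytosines were 44.04 and 43.4%. Because the means are taken over members chosen by value, no test is given for them.

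Because the rule fixed the day 0 values, a lower share from 30 to 70% in any other library follows from the choice, and the share is given as a description of the later libraries only. It was 54.4, 41.0, 53.5, 59.2 and 42.0% on days 5 to 20 in the experimental line. In the control line it was 54.2, 50.5, 21.5, 41.0 and 51.2%. There was no steady trend with time in either line. When the same band was applied to both day 5 libraries instead, 37078 cytosines were chosen, and 48.4% of them in the experimental and 42.3% in the control line were from 30 to 70% over days 9 to 20. The shares after day 0 are thus no measure of change under doxycycline. The libraries with the lowest shares were control day 12, experimental day 9, control day 16 and experimental day 20, which are also the 4 later libraries that listed the fewest cytosines (932307 to 1428330). In these libraries 24.4 to 56.7% of the chosen cytosines were listed at exactly 0 or 100%, against 3.77 to 11.3% in the other 6. The part of library size in this spread was not tested. The mean share was 50.02 ± 8.09% in the experimental and 43.7 ± 13.3% in the control line, or 49.2 ± 5.71% (n = 4) without control day 12.

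**Figure D1:**
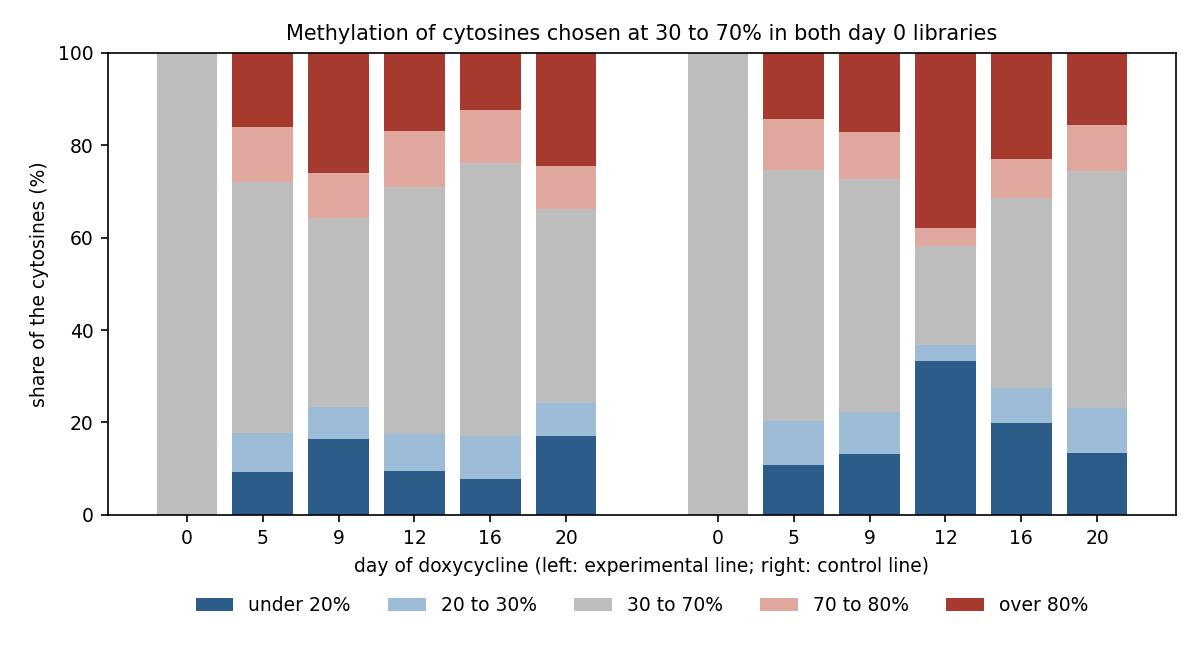
Share of the 29592 chosen cytosines (y axis, percent) in each class of methylation, for each library by day of doxycycline (x axis), with the experimental line on the left and the control line on the right. From day 5 on, 41.0 to 59.2% were from 30 to 70% in the experimental line and 21.5 to 54.2% in the control line, with the smallest grey bar at control day 12.

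The remaining cytosines lay at both ends. In the experimental line 7.78 to 17.02% of them were under 20% and 12.3 to 26.1% over 80%, depending on the day. In the control line 10.8 to 33.2% were under 20% and 14.2 to 38.0% over 80%. Without control day 12 the highest control shares were 19.9 and 23.1%. The SD over the chosen cytosines was 22.8 to 31.8 percentage points in the later experimental libraries. It was 24.9 to 41.8 points in the later control libraries, with a highest value of 32.5 without control day 12. Cytosines chosen by the day 5 libraries had an SD of 28.2 points in the experimental and 31.7 points in the control line over days 9 to 20. Values just inside and outside the rule behaved alike: cytosines with a lower day 0 value of 30 to 32% averaged 44.5% in the experimental and 41.6% in the control line afterwards, and those from 28 to just under 30% averaged 42.7 and 40.4%. At the upper edge, those with a higher value of 68 to 70% averaged 63.3 and 61.4% and those just over 70 up to 72% averaged 65.1 and 62.7%.

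A single cytosine was seldom intermediate throughout. The median chosen cytosine was from 30 to 70% in 5 of the 10 later libraries. Only 150 (0.507%) were so in all 10, and 371 (1.25%) in the 9 without control day 12, while 611 were so in none. Among the cytosines that the rule did not choose, 121 (0.0210%) were from 30 to 70% in all 10 later libraries. The gene with the most of the 371 was Sfi1, which encodes a centrin-binding protein of the centrosome, with 3 cytosines that were intermediate in all 10. It was looked up after these values were seen. Across the chosen cytosines, the levels of 2 later libraries of the same line had a Pearson r of 0.262 to 0.479 in the experimental line. In the control line r was 0.259 to 0.534, or 0.399 to 0.534 without day 12. Between libraries of different lines r was 0.148 to 0.362, or 0.182 to 0.362 without control day 12. These are descriptions over cytosines that share reads and base composition, and the range of levels was narrowed by the rule.

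Averaged over days 5 to 20, 66.1% of the chosen cytosines were from 30 to 70% in the experimental line, 59.9% in the control line and 43.1% (12767) in both, against 7.79% in both for all autosomal cytosines. For cytosines neither chosen, nor under 30% in both, nor over 70% in both day 0 libraries, the share in both was 20.4%. Another 477 of the chosen cytosines were under 20% in both lines and 999 over 80% in both. Of the 29592 chosen, 38 averaged over 80% in the experimental and under 20% in the control line, and 14 the reverse. Over all 606488 autosomal cytosines these counts were 346 and 193. Of those, 265 and 158 were among the 136224 cytosines neither chosen, nor low in both, nor high in both at day 0. The median difference, experimental minus control, was 2.18 percentage points, and the experimental line was higher at 54.3% of them. The median size of the difference, whatever its sign, was 14.1 points, against 4.23 points over all cytosines. For the cytosines neither chosen, nor low in both, nor high in both at day 0 it was 13.5 points. The experimental line was higher at 53.9% of those, so these differences are not particular to the chosen cytosines. The SD over the 5 days at a single cytosine had a median of 18.9 points in the experimental and 21.96 points in the control line (16.8 without day 12).

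**Figure D2:**
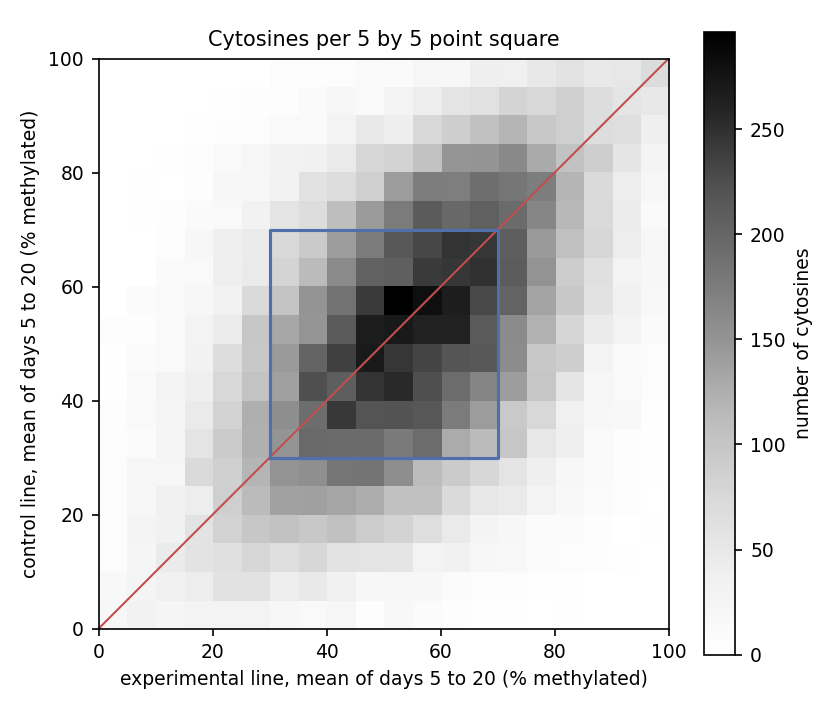
Number of chosen cytosines (grey scale) by their mean over days 5 to 20 in the experimental line (x axis) and the control line (y axis), in percent methylated. The blue square is 30 to 70% in both lines and holds 12767 cytosines, and the cloud is spread widely around the red line of equal levels (r = 0.473).

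Few of the chosen cytosines passed the test between the lines in the main setting. Days 5 to 20 of the experimental line (n = 5) were compared with the same days of the control line (n = 5) by limma on M-values, a log2 ratio of methylated to unmethylated share. The day 0 libraries, which the rule used, were left out. Of the 29592 chosen cytosines, 88 (0.297%) passed an adjusted p of 0.05, with 47 higher (0.159%) and 41 lower (0.139%) in the experimental line. The background was 2575 of 508351 cytosines that varied, 0.507%, with 1396 higher (0.275%) and 1179 lower (0.232%). At an unadjusted p under 0.05 the order was reversed, with 15.7% of the chosen against 11.8% of all. On the scale of fractions, in place of M-values, 440 of the chosen (1.49%) and 4707 of all (0.926%) passed, so no statement is made that they differ less or more often than others. All 5 experimental libraries lay above all 5 control libraries at 3.09% of the chosen cytosines (all cytosines, 1.76%) and below them at 2.17% (all cytosines, 1.23%).

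The 88 differed by a median of 47.1 percentage points. Of these, 16 lay in a promoter, 49 elsewhere in a gene and 23 between genes, where 12.2, 50.7 and 37.1% of all chosen cytosines lay. In the control day 12 library 60 of them were at exactly 0 or 100%, as were 56.7% of all chosen cytosines. Without that library 99 of the chosen cytosines passed. Among the 12767 that averaged from 30 to 70% in both lines, a choice that itself limits the difference, 1 passed (0.00783%). It lay on chromosome 10 at position 8831548 and was at 67.6, 70.4, 66.2, 65.1 and 58.9% in the experimental and 25.3, 25.2, 33.0, 41.9 and 30.8% in the control line on days 5 to 20 (adjusted p = 0.0405), after 64.3 and 56.2% at day 0.

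Of the cytosines that passed, one that was higher in the experimental line lay between genes, 4848 bp from the start of Eml5, which encodes a microtubule-associated protein (chr12:98906332, mm10). It went from 40% to 50, 100, 100, 80 and 93.3% in the experimental line and from 69.2% to 0% at all 5 later days in the control line (84.7 ± 21.03 against 0%, SD, n = 5 each, adjusted p = 0.00931, limma). The lines thus moved in opposite directions from day 0 at every later day. The rule set these day 0 values and the cytosine was named for its large difference, so this follows in large part from the choice. The exact permutation p was 0.00794, the smallest that 5 against 5 libraries can give. The call held without any 1 library (adjusted p of 0.00394 to 0.0310) and was lost with the day as a block (0.123). It was also lost with the study's grouping of 6 control libraries (0.0520), which adds the control day 0 library that the rule used. The only listed neighbour of this cytosine within 100 bp did not follow it, with means of 65.7% in the experimental and 85.0% in the control line. The largest decrease lay between genes, 5136 bp from the start of Pgm5, which encodes a phosphoglucomutase-like protein of cell contacts (chr19:24866978). It went from 50% to 0, 0, 17.4, 33.3 and 0% in the experimental line and from 57.1% to 100, 100, 100, 100 and 50% in the control line (adjusted p = 0.0487). This call held in 1 of the 10 fits that left out a library, that without control day 20, and was lost without any of the other 9 (adjusted p of 0.0521 to 0.125).

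The second decrease lay inside Tbx3os1, a transcript opposite to Tbx3, a T-box transcription factor of limb and mammary development (chr5:119663027). It was at 30.3% in the experimental and 66.7% in the control line at day 0. Later it was at 23.3, 5.17, 0, 7.14 and 7.69% in the experimental line and at 65, 85.8, 100, 80.6 and 96.2% in the control line (adjusted p = 0.0483). This call was lost on leaving out each experimental library in turn, and control day 9, 16 or 20 (adjusted p of 0.0650 to 0.110). Its 4 listed neighbours within 100 bp, 1 of them chosen, averaged 42.4 and 81.2%. Of these 3 cytosines, which were named for large differences, that near Eml5 moved in opposite directions from day 0 in the lines at every later day.

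The chosen cytosines were found mostly outside promoters, as were the highly methylated ones. Of them, 12.2% were in a promoter (1500 bp upstream to 500 bp downstream of a start), 50.7% elsewhere in a gene and 37.1% between genes. For all listed autosomal cytosines these shares were 35.2, 44.7 and 20.1%. The cytosines under 30% in both day 0 libraries lay mostly in promoters (68.9%), and those over 70% in both lay mostly in gene bodies (66.6%), with 5.59% in promoters. Cytosines with another pair of day 0 values were close to the chosen ones, with 15.2% in promoters and 31.9% between genes. The share between genes was 6.69% for the low and 27.8% for the high cytosines. The median distance to the nearest gene start was 14597 bp for the chosen, 317 bp for the low, 15746 bp for the high and 12046.5 bp for the other cytosines. The median number of listed cytosines within 250 bp was 4 for the chosen, the high and the other cytosines alike, and 14 for the low ones.

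Of all listed cytosines within 100 bp of a gene start, 1.11% were chosen, and this share rose with distance to 5.18% at 1 to 2 kb and 8.61% beyond 50 kb. It fell with local density, from 8.52% where 1 to 2 listed cytosines lay within 250 bp (the cytosine itself included) to 0.472% where more than 30 did. The share of high cytosines fell likewise, from 46.3 to 1.33%. Density and distance to a gene start vary together, and their parts were not separated. The share was similar along the genome, from 4.35% on chromosome 19 to 5.31% on chromosome 12.

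**Figure D3:**
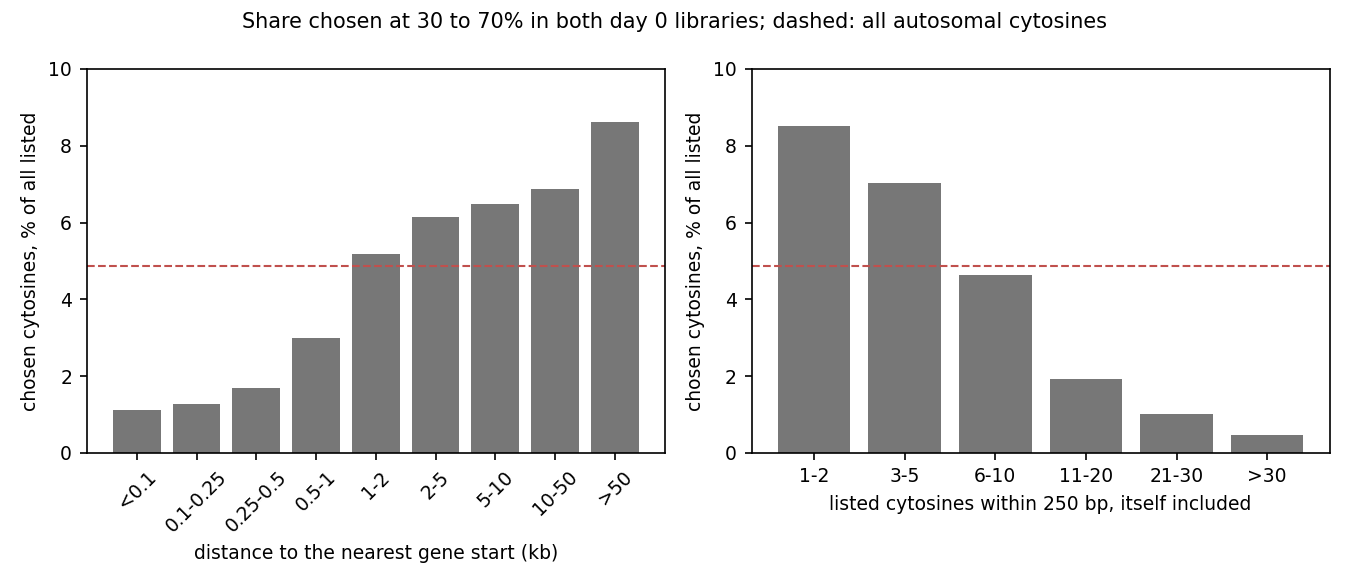
Share of listed cytosines that were chosen (y axis, percent) by distance to the nearest gene start in kb (left) and by the number of listed cytosines within 250 bp (right). The dashed line is the share over all autosomal cytosines, 4.88%, and the bars rise from 1.11 to 8.61% with distance and fall from 8.52 to 0.472% with density.

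Chosen cytosines had chosen neighbours more often than their share of all cytosines, although most neighbours were of another class. Of the listed cytosines within 100 bp of a chosen one, 16.3% were chosen too, 16.6% were low in both lines, 22.6% were high in both and 44.5% had another pair of day 0 values. Over all listed cytosines these classes made up 4.88, 42.8, 29.8 and 22.5%. These shares are not matched for density, and 7.04% were chosen where 3 to 5 listed cytosines lay within 250 bp. The neighbours also include the other strand of the same CpG and cytosines that can share reads. Of the neighbours of low cytosines 94.0% were low and of those of high cytosines 71.4% were high. A chosen cytosine had another within 100 bp in 29.95% of cases, and 62.6% were the only one in their 1 kb window.

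The cytosine on the other strand of the same CpG gave a reading that the rule did not use unless it was chosen as well. Such a partner was listed for 2537 of the chosen cytosines. At day 0 the partner was from 30 to 70% in 55.4% of cases in the experimental and 38.1% in the control library, with medians of 54.5 and 50.8%. Partners of low cytosines were from 30 to 70% in 4.003 and 3.81% and partners of high cytosines in 9.57 and 11.7% of cases. The partner itself met the rule in 22.8% of cases, was low in both lines in 8.87% and high in both in 11.7%. Partners that met the rule are in the band by choice, so the shares of 55.4 and 38.1% are in part set by the rule. Partners of low and of high cytosines met it in 0.864 and 2.01% of cases. Among partners that were not chosen the shares are lower, and they were not computed separately. The median gap between partners at day 0 was 16.4 points in the experimental and 28.1 points in the control library. The control day 0 library listed 1394408 cytosines and the experimental one 1666815, and the part of depth in this gap was not tested. When the partners of a CpG were averaged into 1 value before the rule was applied, 1636 CpGs met it. Of these, 59.5% in the experimental and 53.5% in the control line were from 30 to 70% over days 5 to 20.

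Windows of 1 kb, averaged over all listed cytosines in them, gave regional values. Windows with at least 5 chosen cytosines numbered 151 and held 902 of the 29592. Of these windows 88 averaged from 30 to 70% in both lines over days 5 to 20, and 62 overlapped a promoter. Between the lines 5 of the 151 (3.31%) passed the test, against 1193 of 69658 windows tested (1.71%). Of the 5, 3 were higher (1.99%, against 1.16% of all windows) and 2 lower (1.32%, against 0.553%) in the experimental line. On the scale of fractions 18 passed. Leaving out control day 12 gave 6 calls and leaving out any other library gave 1 to 3. The median difference over the 151 was 2.13 points, against 0.41 over all windows tested, and the differences ran from -38.2 to 30.7 points.

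The windows with the most chosen cytosines showed no call. The window in Unc45b, a myosin chaperone of striated muscle (chr11:82930001-82931000, 12 of 16 cytosines chosen), was at 44.4, 26.0, 42.6, 44.8 and 46.7% in the experimental line on days 5 to 20. It was at 28.8, 32.6, 36.4, 52.9 and 35.9% in the control line, and the ranges overlapped (difference 3.57 points, adjusted p = 0.826). The window at the start of Hoxd9, a homeobox factor of limb and trunk patterning (chr2:74698001-74699000, 12 of 33), was at 64.6 and 57.9% at day 0. It went to 64.5, 35.8, 73.0, 49.1 and 40.7% in the experimental line and to 30.8, 23.3, 34.5, 57.7 and 17.97% in the control line. The experimental line was higher at 4 of 5 days, by 19.8 points on average, and the ranges overlapped (adjusted p = 0.308). Its 12 chosen cytosines alone averaged 62.7% in the experimental and 29.0% in the control line.

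The window that holds Zrsr1 and lies inside Commd1 (chr11:22972001-22973000, 11 of 18) covers the start of Zrsr1, an imprinted retrogene for a splicing factor. It was at 31.2, 40.5, 54.0, 33.7 and 52.9% in the experimental and 51.4, 53.0, 38.3, 54.5 and 43.7% in the control line (adjusted p = 0.695). The window at the start of Plagl1, an imprinted zinc finger factor (chr10:13090001-13091000, 11 of 29), was at 47.8, 68.9, 30.2, 49.0 and 56.4% in the experimental and 31.7, 65.8, 55.9, 46.6 and 40.5% in the control line (adjusted p = 0.922). Its mean difference of 2.35 points changed sign without experimental day 9 (-2.25) or control day 5 (-1.76). The window at Ajap1, which encodes an adherens junction protein (chr4:153482001-153483000, 10 of 37), averaged 31.6 ± 7.85% and 37.5 ± 7.47% (adjusted p = 0.639). The 9 chosen cytosines of its promoter were at 19.7 to 29.2% in the experimental and 30.03 to 50.1% in the control libraries, ranges that did not overlap, and none of them passed the test. They were looked up after these values were seen. The 10 later libraries of these 5 windows ran over 23.2 to 55.1 points, with no steady direction over the days in either line.

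Of the 5 windows that passed, 4 are described here, and in each of them the lines already stood apart at day 0. The window in Arid3c, a DNA-binding factor of the ARID family (chr4:41725001-41726000, 5 of 12), was at 49.2 and 31.4% at day 0. It was at 61.9, 44.7, 54.4, 44.5 and 56.8% in the experimental line afterwards, above 26.5, 27.9, 24.0, 23.9 and 28.1% in the control line (adjusted p = 0.0323). The window in Tbx3os1 (chr5:119663001-119664000, 5 of 14), which holds the named cytosine, was at 27.1 and 56.9% at day 0. It was at 19.5, 29.7, 25.2, 24.98 and 26.2% and at 56.6, 61.7, 69.7, 64.2 and 64.6% later, lower in the experimental line at every day (adjusted p = 0.01004), and this call held without any 1 library.

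The other 2, in which chosen cytosines made up less than 1 in 3 of those listed, were named after their values were seen. At the start of Nr5a2, an orphan nuclear receptor (chr1:136953001-136954000, 5 of 18), the means were 22.7 ± 7.99% and 55.7 ± 9.74% (SD, n = 5, adjusted p = 0.0372), after 24.9 and 43.2% at day 0. In Tspan4, a tetraspanin (chr7:141482001-141483000, 5 of 29), they were 66.0 ± 4.98% and 39.7 ± 3.26% (adjusted p = 0.0305), after 65.3 and 37.7%. The 5 chosen cytosines of the Tspan4 window averaged 49.9 and 40.3%, so that most of its difference lay in the cytosines that were not chosen. The exact permutation p was 0.00794 in each of the 4. The Arid3c call was lost without experimental day 5, 12 or 20 or control day 5, 9, 16 or 20, and the Tspan4 call without experimental day 5, 12 or 16 or the same control days (adjusted p of 0.0570 to 0.0681). The Nr5a2 call held only without control day 12 among the 10 such fits (adjusted p of 0.0507 to 0.0825 in the others).

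**Figure D4:**
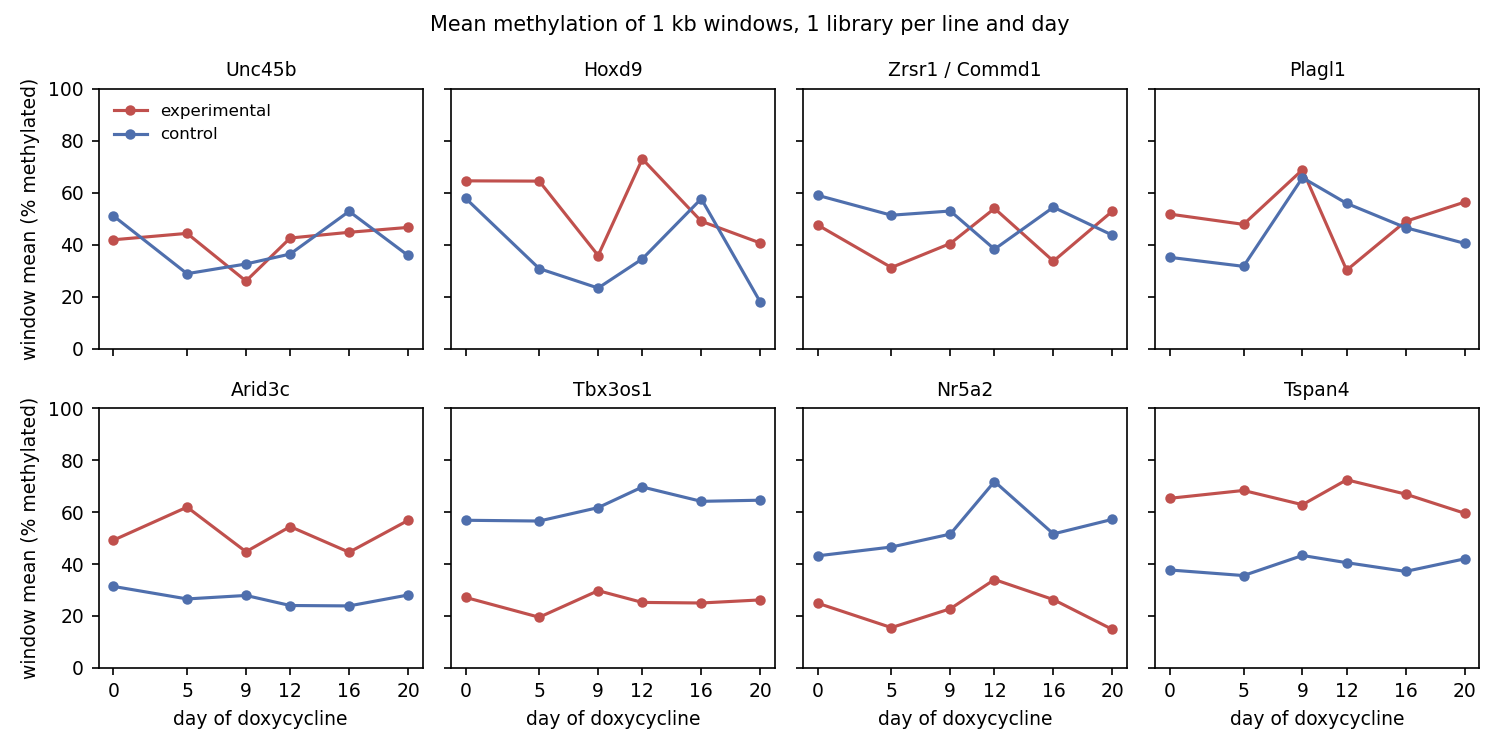
Mean methylation of 8 windows of 1 kb (y axis, percent) by day of doxycycline (x axis), with 1 library per point, experimental in red and control in blue. In the upper row, 4 windows with the most chosen cytosines cross between days, and in the lower row, 4 windows that passed the test were apart at day 0 and stayed apart.

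The windows with the steadiest level over the 10 later libraries, among 18 with at least 8 chosen cytosines, were not in genes of the imprinted list below. The window at Misp3 and Mir1199 (chr8:84012001-84013000, 8 of 35) ran over 12.5 points, with 64.5, 61.8, 67.6, 74.2 and 69.6% in the experimental and 65.5, 64.5, 69.8, 64.4 and 64.6% in the control line. The window in Isl2, a LIM homeobox factor of motor neurons (chr9:55545001-55546000, 8 of 30), ran over 14.96 points and averaged 56.6 ± 3.14% and 63.7 ± 3.01%. The windows in the gene model Gm7389, at Grhl2, a grainyhead factor of epithelia, and in Fry, a spindle-associated protein, ran over 17.6, 20.2 and 21.4 points. Their experimental and control means were 63.1 and 58.0% for Gm7389, 50.5 and 58.8% for Grhl2 and 23.8 and 25.9% for Fry. The median range over the 18 windows was 26.2 points, and none of these 5 passed the test (adjusted p of 0.429 to 0.863).

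Imprinted genes, which are methylated on the copy from one parent at their control regions, were counted from a list of 59 such genes. Their bodies and promoters held 1591 listed cytosines, of which 161 (10.1%) were chosen, against 3.84% for all genes. Chosen cytosines were found in 39 genes of the list and at least 5 in 14. The share was 12.7% for genes at regions methylated on the maternal copy (128 of 1009), 7.30% for those methylated on the paternal copy (17 of 233) and 4.58% for other genes of the clusters (16 of 349). On other lists it was 1.86% for fibroblast genes (4 of 215), 8.50% for epithelial genes (17 of 200) and 3.66% for germline genes (6 of 164).

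None of the 161 passed the limma test at the adjusted p of 0.05, where 0.297% of all chosen cytosines did, a share at which a count of 0 in lists of this size carries no information. Of the 161, 12 (7.45%) had an unadjusted p under 0.05, against 15.7% of all chosen cytosines. None of the 4, 17 and 6 on the other lists passed it either, with 2 below the unadjusted 0.05 on each. Of the imprinted cytosines, 59.6% averaged from 30 to 70% in both lines over days 5 to 20, against 43.1% of all chosen. The median size of difference of the 161 was 11.4 points, against 14.1 points. The parts of the list differed. For the 128 maternal, 17 paternal and 16 other cytosines, the share in the band in both lines was 64.8, 29.4 and 50%. Their median sizes of difference were 9.95, 17.3 and 13.7 points. An unadjusted p under 0.05 was found for 6.25, 17.6 and 6.25% of them.

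Single imprinted genes varied from library to library. Grb10, an adaptor of insulin signalling, held 17 of 103 listed cytosines, with means of 64.6, 67.8, 51.2, 60.8 and 55.4% in the experimental and 56.7, 60.7, 44.3, 72.2 and 44.3% in the control line. Gnas, the gene of the stimulatory G protein alpha subunit, held the most, 25 of 146, at 48.4 ± 9.62% and 54.1 ± 7.62% (SD, n = 5). Plagl1 held 13 of 46, all in its promoter, and all 13 averaged from 30 to 70% in both lines, although their mean went from 29.3 to 70.1% between experimental libraries. The 13 of Zrsr1 are the same cytosines as those of Commd1, at 49.0 ± 11.9% and 56.9 ± 7.29%, and 12 of them averaged from 30 to 70% in both lines.

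Igf2r, the receptor that removes IGF2 from the cell surface, held 9. Airn, the antisense transcript that overlaps it, held 8, which are among the 9 of Igf2r. The Igf2r cytosines were at 51.1, 78.99, 57.7, 42.9 and 33.5% in the experimental and 52.3, 52.3, 77.5, 38.7 and 39.9% in the control line. The 8 shared with Airn ran from 25.2 to 76.4% in the experimental and from 37.0 to 74.7% in the control line. They were highest at experimental day 9 and control day 12, which is the same reading as at Igf2r. H13, a signal peptide peptidase, held 13, which include the 10 of Mcts2, with means of 59.7 ± 10.8% and 61.8 ± 9.89%. Kcnq1, a potassium channel, held 10 of 61 at 42.8 ± 6.26% and 53.7 ± 9.91%. Trappc9, a trafficking factor, held 9 of 148 at 52.9 ± 7.02% and 51.4 ± 7.45%. Of the genes methylated on the paternal copy, Rasgrf1, a Ras exchange factor, held 5 at 44.0 ± 17.8% and 36.1 ± 7.72%, and Zdbf2 held 7 at 41.5 ± 6.37% and 31.3 ± 12.9%. Ppp1r9a, which encodes neurabin, held 5 at 60.96 ± 10.1% and 71.5 ± 8.68%, the highest control mean of the 14 genes. None of the 5 Ppp1r9a cytosines averaged from 30 to 70% in both lines. In each of these 14 genes, some of which share cytosines, the ranges of the lines overlapped.

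**Figure D5:**
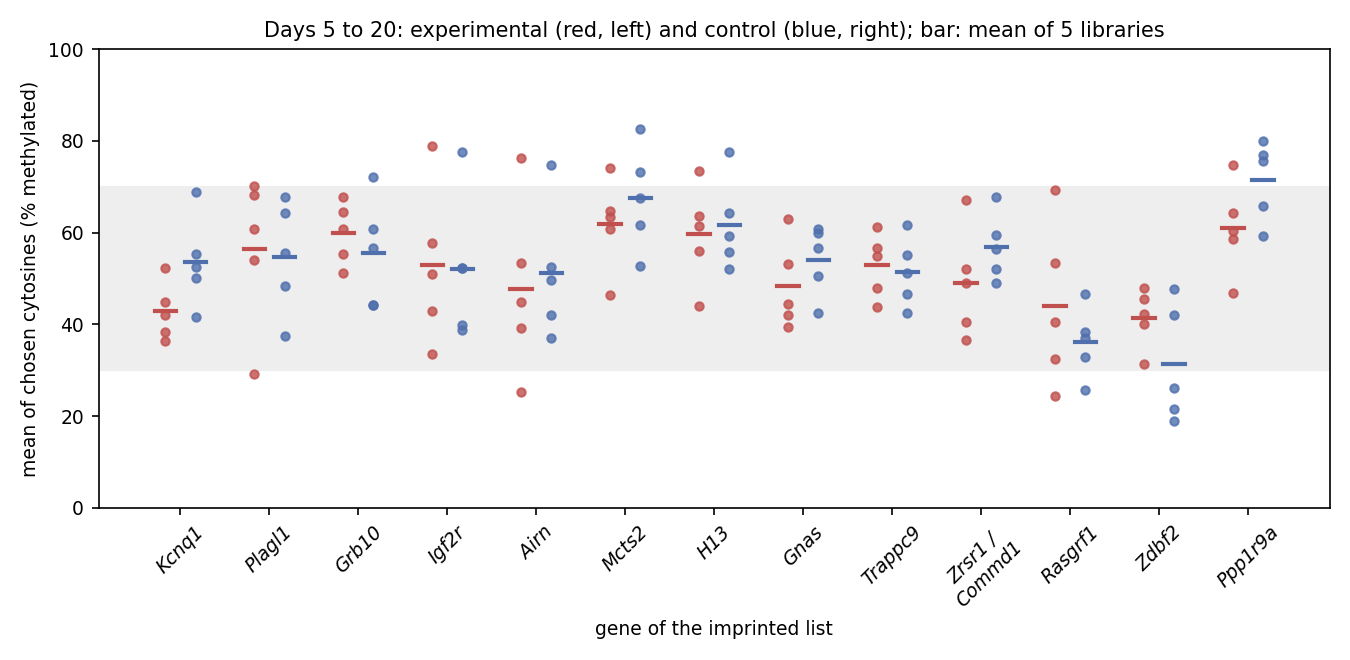
Mean of the chosen cytosines (y axis, percent methylated) in each imprinted gene with at least 5 of them (x axis), with 1 point per library of days 5 to 20, experimental in red and control in blue, and a bar for the mean of 5 libraries. Zrsr1 and Commd1 share their cytosines and are drawn once. The cytosines of Airn are among those of Igf2r, and those of Mcts2 are among those of H13. The grey band is 30 to 70%, and red and blue points overlap in every gene.

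Of 16297 promoters with listed cytosines, 2437 held a chosen one, 74 held at least 5 and 16 at least 8. Outside the imprinted list, the Hymai promoter held the most, 13 of 42, and these are the same cytosines as those of the Plagl1 promoter. The promoters of Rasef, a Rab GTPase with EF hands, and of the gene model Gm11240 on the other strand shared 11 of 43. These were at 63.7, 47.0, 44.7, 44.4 and 27.6% in the experimental and 35.0, 49.1, 14.8, 43.1 and 30.99% in the control line. The promoter of the gene model Gm20052 (chr5:37892272-37894271) held 9 of 26. These were at 48.9 and 46.5% at day 0, then at 59.5, 70.6, 44.9, 28.4 and 56.4% in the experimental and 30.3, 16.9, 3.31, 19.9 and 16.3% in the control line. The lowest experimental library of Gm20052 was below the highest control library, and none of its 9 cytosines passed the test. The promoter of 4930554H23Rik, shared with Otud7a, held 9 of 30, at 37.2 ± 8.38% and 30.3 ± 8.97% (SD, n = 5). The promoters of Ajap1, Six2, Gm15723, Mir1199 and Misp3 held 9 as well, so these places were tied. Their differences, experimental minus control, ran from -14.8 points at Ajap1 to -4.65 at Misp3, against 34.6 at Gm20052 and 6.89 at 4930554H23Rik.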

How the data were processed

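RRBS was performed by the authors on DNA of the experimental and control iMEF lines, 1 library for each line and day. Per the labels and the study's methods, reads of paired-end libraries were aligned to mm10 with Bismark and CpG methylation was extracted, and the deposited values are the percent of reads called methylated at each cytosine. Tool versions are not given in the sources used here. Read counts were not used here, and neither a coverage filter nor a counting interval could be applied. The filters that the study applied later, in RnBeads, are not part of these values.

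Autosomal cytosines listed in all 12 libraries were kept, with the 2 strands of a CpG as separate cytosines. The members, lists and tests were chosen with earlier results of these data known. Percentages were divided by 100, and M-values were log2 of (fraction + 0.01) over (1 - fraction + 0.01). The 5 experimental and 5 control libraries of days 5 to 20 were compared with limma and Benjamini-Hochberg adjustment over the 508351 cytosines that varied, or over 69658 windows of 1 kb with at least 3 cytosines, at a threshold of 0.05. The study's grouping, with the control day 0 library added, was an alternative, although the rule had limited the values of that library at the chosen cytosines. For single cytosines and windows an exact permutation test, two-sided, was added, whose smallest p is 0.00794 in 252 regroupings. The scripts were checked on generated test values with known changes.

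Gene positions and starts were those of RefSeq on GRCm38.p6, the assembly of mm10. Where the promoter table had no start, the end of the gene was taken by its strand, looked up by symbol in a GENCODE annotation of an older assembly, whose coordinates were not used. In all 33544 autosomal genes had a start, among them 96.8% of protein-coding genes. Exons and introns of this build were not used. All 60977 listed cytosines inside the RefSeq promoter sequences fell on a CG.

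Named cytosines were the 2 largest increases and the 2 largest decreases among chosen cytosines past the threshold whose libraries did not overlap, 1 per 10 kb. Named windows were the 5 with the most chosen cytosines, up to 3 increases and 3 decreases past the threshold with at least 5 chosen cytosines that made up at least 1 in 3 of those listed, and the 5 with the smallest range among those with at least 8. Named genes were those of the imprinted list with at least 5 chosen cytosines and the 5 other promoters with the most, of which the last places were tied with other promoters. A cytosine and a window that would otherwise be described are not reported here. Alternatives were the M-value offset, the scale, the samples, a block by day, the filter, the variance trend, the band, the strands, the promoter length and each library left out. R 4.3.3, limma 3.58.1, Python 3.11.15, numpy 2.4.6, pandas 2.3.3 and matplotlib 3.10.9 were used. The sex chromosomes were left out of all comparisons.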

Additional observations from a re-analysis of the deposited data

Results flagged for a closer look

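Within a line, 84 groups of 5 later libraries were searched for 1 library far from the other 4, by the gap to the nearest other value over the range of the group, against a critical value of 0.71. Chance gives about 1 such group in 20, and 3 were found. At the cytosine near Pgm5 the control day 20 library was at 50% while the other 4 were at 100%. In the Unc45b window the experimental day 9 library was at 26.0%, below the others, and in the Misp3 window the control day 12 library was at 69.8%, above the others. The ties at 100% leave the first of these groups with a gap equal to its whole range.

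From their own day 0 values, all experimental libraries rose and all control libraries fell at the cytosine near Eml5 (difference of the later means, 84.7 points). The rule set the day 0 values and the cytosine was named for its large difference, so this pattern follows in large part from the choice. The share of all cytosines with this pattern is not given. The difference between the lines in this change from day 0 was not tested.

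Outside the autosomes, a median of 1536.5 chromosome Y cytosines was listed in the experimental libraries and of 185.5 in the control libraries. Of the chromosome X cytosines listed in all 12 libraries, 10.4 to 17.8% were from 30 to 70% in the experimental and 16.3 to 38.8% in the control libraries, where the lowest value was that of day 12. The autosomal shares were 12.996 to 16.1% and 7.35 to 15.5%. No label gives the sex of the embryos, and the part of this difference between the lines in the autosomal values was not tested.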

How the results depend on the processing

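The number of chosen cytosines that passed depended on the scale and the variance prior. It was 88, and became 211 with an offset of 0.05, 440 on fractions, 42 with the study's grouping of 6 control libraries and 48 with a mean-variance trend, while keeping cytosines of constant value gave 79. Leaving out 1 library gave 52 to 113, below the 88 by more than 1.5 times without experimental day 5 (58), experimental day 12 (57) or control day 16 (52). Over all cytosines 2575 became 3124 with the study's grouping, 4707 on fractions, and 1733 to 3293 with 1 library left out. The 1193 windows became 2607 with the larger offset, 2809 on fractions and 321 to 1213 with 1 library left out. The 5 windows with at least 5 chosen cytosines became 10 with the larger offset, 18 on fractions, 8 when windows needed 5 listed cytosines, and 1 to 6 with 1 library left out.

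Over all listed autosomal cytosines, the deviations of libraries of the same day from their line means had correlations of -0.0145 to 0.0149. Depth per cytosine is unknown, so these values cannot show whether libraries of the same day share an effect. With the day as a replicate block 0 cytosines, 0 chosen cytosines and 0 windows passed in limma, with 55630 cytosines at an unadjusted p under 0.05. The adjusted p of the 3 named cytosines was then 0.123 to 0.285 and that of the 4 named windows that passed 0.104 to 0.148.

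Of the named cytosines, the one near Eml5 missed the threshold with the study's grouping (adjusted p = 0.0520), that near Pgm5 with that grouping (0.0545), with constant cytosines kept (0.0831) and with the trend (0.0617), and that in Tbx3os1 with the last of these settings (0.0793 and 0.0749). These 4 windows passed in all settings run for them other than the block and the left-out libraries. The Fry window, -2.08 points, ran from -3.93 to 0.515 points with 1 library left out, with a change of sign without experimental day 20 or control day 9 (0.161), and the Plagl1 window ran from -2.25 to 7.42 points with 1 library left out.

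The mean level was 55.7 and 53.2% in the experimental and control lines with a band of 20 to 80%, 52.4 and 49.8% for CpGs with both cytosines averaged, and 51.1% in the control line with a band of 40 to 60%. With 1 library left out it was 54.0 to 54.6% and 51.7 to 52.1%. The share from 30 to 70% was 59.5% in the experimental line for CpGs averaged, and 47.7 to 52.3% and 41.0 to 49.2% with 1 library left out. The share over 80% was 11.7% in the experimental line for CpGs averaged and 17.4 to 20.9% and 17.5 to 23.4% with 1 library left out, and that under 20% was 10.8 to 13.1% and 14.3 to 19.9%. The SD over cytosines was 22.3 points in the experimental line for CpGs averaged and 26.1 to 28.4 and 27.8 to 31.99 points with 1 library left out. With promoters of 500 bp on each side, 8.68% lay in promoters, 52.5% in gene bodies and 38.8% between genes, and with the band of 40 to 60%, 37.9% lay between genes. Another chosen cytosine lay within 100 bp of 12.95% with that band and of 27.6% with 1 cytosine per CpG. The number intermediate in all later libraries, 150, became 371 without control day 12, an alternative chosen after seeing the data.

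A percentage from few reads is often 0 or 100%, and depth per cytosine is unknown, so how much of the spread between libraries is counting error could not be separated from change.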
